A study of Homo sapiens with 4 samples.

Results

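The insulin and IGF receptor axis was followed through 10 genes, given by name and looked up by their symbol in the deposited gene table. The choice was made with earlier results of these data known. These genes were the receptors INSR and IGF1R, the adaptors IRS1, IRS2 and GRB10, the ligand IGF2, and the binding proteins IGFBP2, IGFBP3, IGFBP4 and IGFBP6. All 10 genes were found, each with 1 entry, among the 23362 genes of the table. Poly(A) RNA had been sequenced from MKN28 cells, an epithelial cell line derived from a human gastric adenocarcinoma, which registers of misidentified lines list as a derivative of another gastric line. There was 1 library for each of 4 groups, all carrying a doxycycline-dependent (tet-on) retroviral construct. The groups were Luc (luciferase, the control), KIAA1324 WT, KIAA1324 3NQ, in which the asparagines of its N-glycosylation sites were replaced with glutamine, and KIAA1324 ΔTM, which lacks the transmembrane domain. The cells had been drug-selected for stable carriage of the construct, and the doxycycline exposure of the sequenced cells is not given in the sources used here. As each group has 1 library, the differences could not be set against a spread between replicates, and there are no p-values.

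The insulin receptor and the IGF1 receptor are related tyrosine kinases that, once bound by insulin, IGF1 or IGF2, phosphorylate the IRS adaptors and so recruit PI3K, which activates AKT and mTOR, while GRB2 and SOS lead to RAS and ERK. AKT keeps the FOXO transcription factors out of the nucleus. IGFBPs hold the IGFs in the fluid around cells, and GRB10 binds the activated receptors and dampens them. KIAA1324, also known as inceptor, was reported in β-cells to bind INSR and IGF1R and to counteract their signaling. This makes the transcripts of this axis of interest in cells that express KIAA1324. Receptor binding, internalization and phosphorylation act on proteins and were not measured here.

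The measured value of INSR is a single FPKM per gene, that is, a fragment count divided by transcript length and library size, so that it can be compared between genes. It therefore sums receptor isoform A, without exon 11, and isoform B, which contains it and binds IGF2 less well. Exon 11 has 36 bases and lies at chr19:7150508-7150543 of GRCh37 on the minus strand, within the coding sequence. It is shown in capitals, with 15 bases of exons 10 and 12 on either side, to mark the stretch that a gene-level value does not resolve.

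INSR exon 11: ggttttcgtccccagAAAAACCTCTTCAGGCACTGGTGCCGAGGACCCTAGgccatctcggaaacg

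The start regions of the receptors and of IGFBP4, the binding protein with the highest level in these cells, were read for base content and short motifs. The RefSeq promoter table (GRCh38.p14) held 15 start windows for 9 of the 10 genes, and the 250 bases before each start were read. GC boxes (GGGCGG on either strand) and TATA boxes (TATAAA on either strand) are in capitals. The windows lie at chr19:7294415-7294664 on the minus strand for INSR, at chr15:98648289-98648538 on the plus strand for IGF1R and at chr17:40443200-40443449 on the plus strand for IGFBP4.

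INSR promoter: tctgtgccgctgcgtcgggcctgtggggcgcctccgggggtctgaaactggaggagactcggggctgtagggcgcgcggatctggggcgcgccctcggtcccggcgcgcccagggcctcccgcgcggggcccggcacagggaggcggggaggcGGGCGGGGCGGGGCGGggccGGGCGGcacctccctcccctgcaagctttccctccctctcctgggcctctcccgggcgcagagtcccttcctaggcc

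IGF1R promoter: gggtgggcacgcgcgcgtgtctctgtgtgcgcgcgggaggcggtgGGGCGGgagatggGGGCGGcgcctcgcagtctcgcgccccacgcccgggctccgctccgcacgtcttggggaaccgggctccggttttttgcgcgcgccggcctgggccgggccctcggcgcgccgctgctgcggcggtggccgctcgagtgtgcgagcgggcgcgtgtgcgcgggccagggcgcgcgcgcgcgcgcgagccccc

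IGFBP4 promoter: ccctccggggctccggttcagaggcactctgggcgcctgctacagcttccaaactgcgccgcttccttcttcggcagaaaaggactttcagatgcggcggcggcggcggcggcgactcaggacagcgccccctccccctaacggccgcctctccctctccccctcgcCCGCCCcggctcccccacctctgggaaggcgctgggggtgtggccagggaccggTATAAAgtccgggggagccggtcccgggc

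The INSR window was 78.4% G and C and held 4 GC boxes, of which some overlap. The IGF1R window was 81.2% G and C and held 2 GC boxes, and neither receptor window held a TATA box. IGFBP4 had 1 TATA box and 1 GC box in a window of 71.6% G and C. Over all 35116 windows of the table, the median was 58% G and C, 42.6% held a GC box and 10.7% held a TATA box. Each of the 9 genes had a GC box in at least 1 window, and a TATA box was also found in 1 of the 5 windows of GRB10. A FOXO site (TGTTTAC on either strand), held by 2.98% of all windows, was found among these genes in the IGFBP6 window alone. A match of letters is a description and does not show that a factor binds there.

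In the deposited table, KIAA1324 reached 11185 FPKM in WT and 8197 in 3NQ, was at 2.86 in Luc, and was listed at 0 in the ΔTM-labelled library. That library is therefore named by its label throughout. The epithelial markers EPCAM, KRT8, KRT18, KRT19, CDH1 and CLDN4 were between 174 and 8501 FPKM in all 4 libraries. The gastric marker TFF1 was listed at 0 in all libraries, and MUC5AC and CLDN18 did not exceed 0.0274 FPKM. VIL1 was also listed at 0, whereas MUC1 was at 8.69 to 13.97 FPKM and CDX2 at 0.832 to 1.96, so that MUC1 alone of these 6 gastric or intestinal markers passed 1 FPKM in every library. Of the markers of other cell types, VIM stayed at or below 0.0937 and PTPRC at or below 0.115 FPKM, whereas COL1A1 was at 12.1 to 15.3 and CD68 at 4.44 to 5.84. The summed FPKM ranged from 560540 to 585104. The table holds no read counts, and the depth itself is unknown. The lowest values gave a depth relative to Luc of 0.975 for WT, 1.11 for 3NQ and 1.02 for the ΔTM-labelled library. Only low genes with a ratio to Luc within 0.5 on the log2 scale were used. These were 44.5%, 47.6% and 46.3% of the low genes, respectively. That limit keeps the estimate near 1, so that it cannot show that the depths were equal.

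Levels in the 4 libraries were compared first. IGFBP4 was by far the most abundant of the 10 transcripts, followed by IGF1R, GRB10 and IRS2, and the other 6 lay below 10 FPKM. In Luc, 95.5% of the 11769 genes that reached 1 FPKM in any library were below IGFBP4 and 71.3% were below IGF1R. The corresponding shares were 44.8% for GRB10, 42.2% for IRS2, 29.4% for IGF2, 23.1% for IRS1, 9.86% for INSR, 7.24% for IGFBP2 and 4.50% for IGFBP3. IGFBP6 stayed below 1 FPKM in all 4 libraries and was left out of the counts, so that 9 members were counted. The ranges of GRB10 and IRS2 over the libraries overlapped, as did those of IGF2 and IRS1 and those of INSR, IGFBP2 and IGFBP3, so that the order within each of these sets was not separated.

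**Figure D1:**
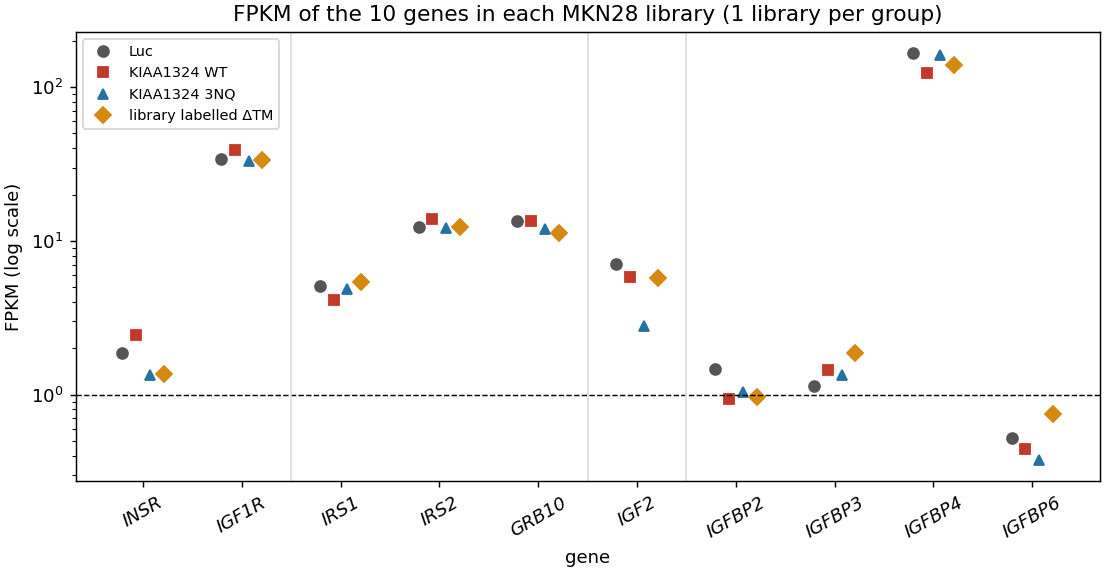
FPKM (log axis) of the 10 genes, 1 point per library, with grey lines between receptors, adaptors, the ligand and binding proteins and a dashed line at an FPKM of 1. IGFBP4 lies between 123 and 168 FPKM and IGF1R between 33.3 and 39.1, whereas INSR lies between 1.33 and 2.45, and the 3NQ point of IGF2 (2.80) is apart from the other 3.

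The receptor transcripts were compared next, since KIAA1324 was reported to bind both proteins in β-cells. INSR, the insulin receptor (ENSG00000171105, chr19:7112266-7294045 of GRCh37, minus strand), was at 1.87 FPKM in Luc and 2.45 in WT, against 1.33 in 3NQ and 1.36 in the ΔTM-labelled library. It was thus highest in WT, with Luc in between and the other 2 libraries almost level at the bottom. The log2 ratio to Luc, computed with a pseudocount of 1 that understates changes at such low levels, was 0.27 in WT but −0.30 in 3NQ and −0.28 in the ΔTM-labelled library. No ratio reached the 1.5-fold threshold (0.58 on the log2 scale) used here to call a gene.

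The gap for INSR was wider when WT was set against 3NQ and the ΔTM-labelled library directly. The log2 ratio was 0.56 against 3NQ and 0.55 against the ΔTM-labelled library, just short of the threshold in both cases, and 1.83-fold and 1.80-fold without a pseudocount. With a pseudocount of 0.1 the log2 ratios were 0.83 and 0.80 and both passed it, and with a pseudocount of 5 they were 0.23 and 0.23. Among all genes considered, 5.06% differed as much between WT and 3NQ and 8.56% between WT and the ΔTM-labelled library. Low transcripts differed more often in general: of the 1429 genes with 1 to 3 FPKM in Luc, 8.26% passed the threshold between WT and 3NQ, compared to 4.47% of all genes.

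IGF1R, the IGF1 receptor (ENSG00000140443, chr15:99192200-99507759, plus strand), was at 34.1 FPKM in Luc and 39.1 in WT, against 33.3 in 3NQ and 33.5 in the ΔTM-labelled library. WT was again the highest, and the other 3 libraries lay within 1 FPKM of each other. The log2 ratio to Luc was 0.19 in WT but −0.03 in 3NQ and −0.02 in the ΔTM-labelled library, and 45.7% of all genes differed as much between WT and Luc. The last 2 signs turned under median-of-ratios scaling, to 0.01 and 0.04. Per length, IGF1R exceeded INSR 18.3-fold in Luc and 15.96-fold in WT, against 25.0-fold in 3NQ and 24.6-fold in the ΔTM-labelled library. The ratio was thus lowest in WT, where both transcripts were at their highest.

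Among 11359 genes with a mean of at least 1 FPKM, PHACTR2, CFL2 and GPANK1 had the 3 log2 ratios to Luc nearest to those of INSR, at Euclidean distances of 0.022, 0.046 and 0.062. TTLL4, UNC13D and MB21D2 were nearest to IGF1R, at 0.017, 0.019 and 0.019. For IGF1R, 41 genes lay within 0.05, and for INSR 2 did. These likenesses rest on 4 libraries and on ratios with the pseudocount of 1. That pseudocount shrinks the ratios of INSR, at 1.87 FPKM in Luc, more than those of its 3 nearest genes. PHACTR2, CFL2 and GPANK1 were at 31.5, 57.3 and 12.2 FPKM in Luc. The nearness of INSR to them therefore depends on the pseudocount, and other pseudocounts were not tried.

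The adaptors varied little. IRS1 (ENSG00000169047, chr2:227599757-227664475), a main docking protein of both receptors, was at 5.06 FPKM in Luc and 4.10 in WT, against 4.83 in 3NQ and 5.39 in the ΔTM-labelled library. It was lowest in WT, with a log2 ratio to Luc of −0.25. IRS2 (ENSG00000185950, chr13:110406184-110438915), its relative, was at 12.3 FPKM in Luc and 13.9 in WT, against 12.2 in 3NQ and 12.4 in the ΔTM-labelled library. It was highest in WT, with a log2 ratio of 0.16. The 2 adaptors therefore lay on opposite sides of Luc in WT, both below the threshold. As a result, the FPKM of IRS2 over IRS1 was 3.39 in WT, compared to 2.44 in Luc, 2.52 in 3NQ and 2.29 in the ΔTM-labelled library. IRS2 had the narrowest spread of the 9 members, and 81.8% of all genes varied at least as widely over the 4 libraries.

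GRB10 (ENSG00000106070, chr7:50657760-50861159, minus strand), the inhibitory adaptor, was at 13.5 FPKM in Luc and 13.5 in WT, against 11.9 in 3NQ and 11.3 in the ΔTM-labelled library. Luc and WT were level, and 3NQ and the ΔTM-labelled library were lower, with log2 ratios to Luc of −0.17 and −0.23. Neither reached the threshold, and 45.1% and 24.6% of all genes, respectively, differed as much.

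IGF2 was the only one of these genes to pass the threshold. IGF2, a ligand of IGF1R and of INSR isoform A (ENSG00000167244, chr11:2150342-2170833, minus strand), was at 7.12 FPKM in Luc and 5.81 in WT, against 2.80 in 3NQ and 5.75 in the ΔTM-labelled library. 3NQ was apart from the other libraries, with an FPKM of 0.394 times that of Luc, and WT and the ΔTM-labelled library were level with each other. The log2 ratio to Luc was −1.09 in 3NQ, −0.25 in WT and −0.27 in the ΔTM-labelled library. Over the alternative pseudocounts and scalings, the ratio in 3NQ ranged from −1.31 to −0.64 and passed the threshold under each. Of all genes considered, 0.807% differed as much between 3NQ and Luc, and 2.43% varied as widely over the 4 libraries. Among the 2546 genes with 3 to 10 FPKM in Luc, 5.46% passed the threshold between these libraries.

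Compared to 3NQ, the log2 ratio of IGF2 was 0.84 in WT, and 3NQ against the ΔTM-labelled library gave −0.83. Both passed the 1.5-fold threshold, but not with a pseudocount of 5, where they were 0.47 and −0.46. The interval of IGF2 overlaps that of the readthrough gene INS-IGF2 over 17066 bases, or 83.3% of its length, and both lie on the minus strand, so that the split of reads between them is uncertain. INS-IGF2 was listed at 3.5e-52 FPKM or less in each library. INS, the insulin gene, was listed at 0 in all 4, and the neighbouring TH was at 4.58, 5.45, 4.41 and 4.11 FPKM in Luc, WT, 3NQ and the ΔTM-labelled library. TH thus did not share the low value of IGF2 in 3NQ.

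**Figure D2:**
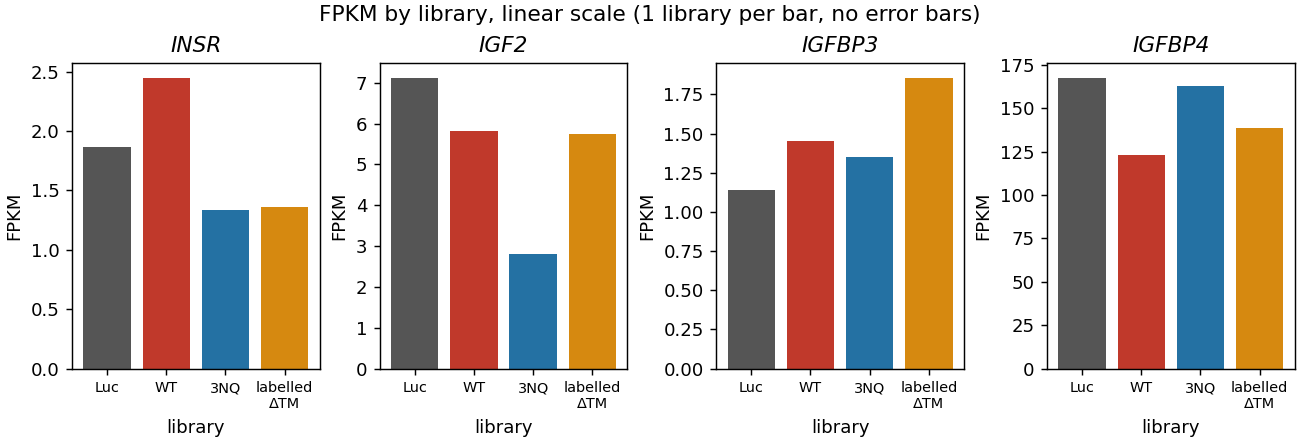
FPKM (linear axis from 0, 1 bar per library, no replicates) of INSR, IGF2, IGFBP3 and IGFBP4. INSR is highest in WT (2.45), IGF2 lowest in 3NQ (2.80), IGFBP3 highest in the ΔTM-labelled library (1.86) and IGFBP4 lowest in WT (123).

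The binding proteins were dominated by 1 gene. IGFBP4 (ENSG00000141753, chr17:38599702-38613983), which in general restrains IGF action until proteases cleave it, was at 168 FPKM in Luc and 123 in WT, against 163 in 3NQ and 139 in the ΔTM-labelled library. It accounted for 97.5% to 98.3% of the summed FPKM of the 4 binding proteins. WT was lowest, with a log2 ratio to Luc of −0.45, the largest of the 9 members in that comparison, and 13.4% of all genes differed as much. The log2 ratio of WT was −0.40 against 3NQ and −0.17 against the ΔTM-labelled library, and none of these values reached the threshold.

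IGFBP2 (ENSG00000115457, chr2:217497551-217529159) was at 1.47 FPKM in Luc and 0.934 in WT, against 1.04 in 3NQ and 0.967 in the ΔTM-labelled library. Luc was above the other 3 libraries, with log2 ratios of −0.35, −0.28 and −0.33. With a pseudocount of 0.1, the ratio in WT was −0.60 and passed the threshold. IGFBP3 (ENSG00000146674, chr7:45951949-45961473), the main IGF carrier in blood, was at 1.14 FPKM in Luc and 1.45 in WT, against 1.35 in 3NQ and 1.86 in the ΔTM-labelled library. Here Luc was the lowest, and the log2 ratios were 0.20 for WT, 0.14 for 3NQ and 0.42 for the ΔTM-labelled library. The last ratio was 0.66 with a pseudocount of 0.1, past the threshold. IGFBP6 (ENSG00000167779, chr12:53491220-53496129), which prefers IGF2, was at 0.521 FPKM in Luc and 0.442 in WT, against 0.373 in 3NQ and 0.743 in the ΔTM-labelled library, too low to be counted.

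**Figure D3:**
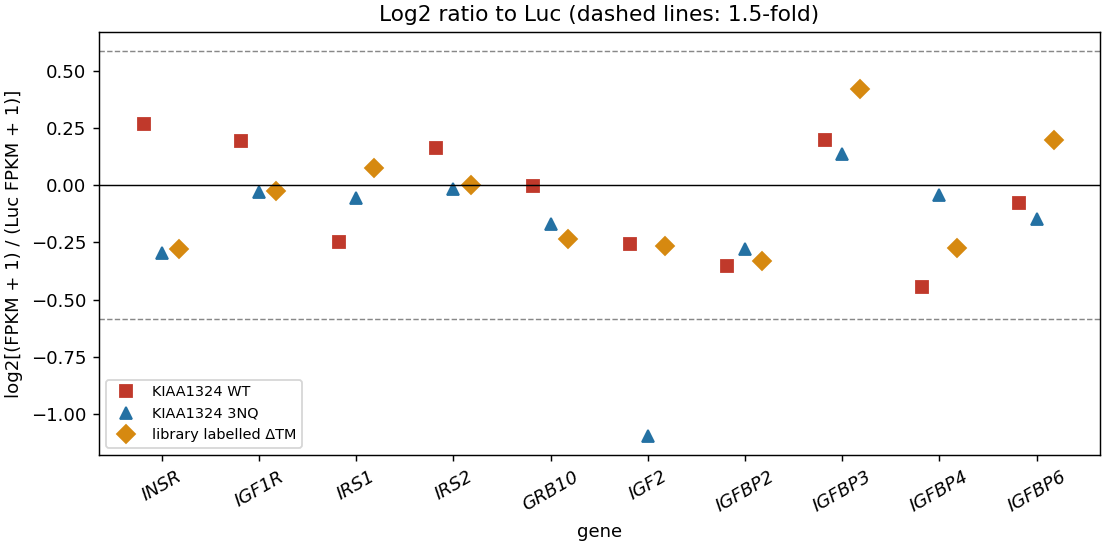
Log2 ratio to Luc of FPKM + 1 for the 10 genes in the other 3 libraries, with dashed lines at 1.5-fold in either direction. The 3NQ point of IGF2, at −1.09, is the only one beyond a line.

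The 9 counted members were then set beside all 11769 genes considered. In WT, none of the 9 was higher and none lower than Luc past 1.5-fold, where 3.36% of all genes were higher and 3.34% lower. In 3NQ, none was higher (1.77% of all genes) and 1 was lower, IGF2 (2.57% of all genes). In the ΔTM-labelled library, none was higher (1.54% of all genes) and none lower (1.57% of all genes). Between WT and 3NQ, 1 of the 9 passed the threshold, again IGF2, and 4.47% of all genes did. Between WT and the ΔTM-labelled library, none did (7.16% of all genes), and between 3NQ and the ΔTM-labelled library, IGF2 did (3.34% of all genes). A count of 0 or 1 among 9 genes does not set them apart from these shares. The comparisons also share libraries, so that each call of IGF2 rests on the same 3NQ value.

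**Figure D4:**
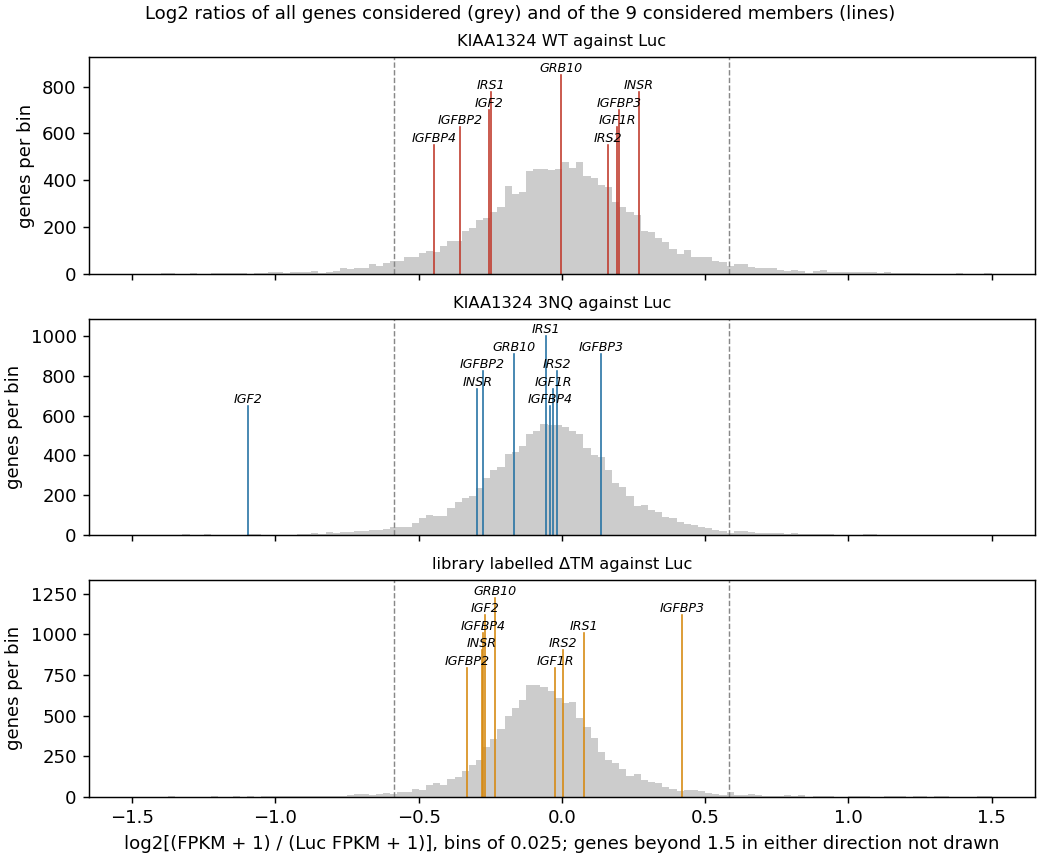
Histograms of the log2 ratio to Luc over the 11769 genes considered (grey, genes per bin) in WT, 3NQ and the ΔTM-labelled library, with a line for each of the 9 counted members and dashed lines at 1.5-fold. In WT, the members spread from −0.45 (IGFBP4) to 0.27 (INSR) inside the bulk of the genes, and in 3NQ only IGF2 lies outside it.

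Taken over the 9 members, the log2 ratio to Luc had a median of −0.0024 for WT, −0.057 for 3NQ and −0.23 for the ΔTM-labelled library, and that of all genes considered was −0.0049, −0.038 and −0.060. In WT, 4 members were above Luc and 5 below. In 3NQ, 1 was above and 8 below, and in the ΔTM-labelled library, 3 were above and 6 below. The median of all genes was also below 0 in each comparison, but the share of all genes below Luc was not counted. Several of these signs depended on the scale of the libraries. Median-of-ratios scaling turned IGF1R (0.012), IRS2 (0.023) and IGFBP4 (0.00064) to just above Luc in 3NQ. It did the same to IGF1R in the ΔTM-labelled library (0.041) and to GRB10 in WT (0.0086).

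The rest of the pathway was followed with 9 lists of 143 genes in all, of which 110 reached 1 FPKM in any library. In WT, 5 of the 110 (4.55%, beside 3.36% of all genes) were higher and 4 (3.64%, beside 3.34%) lower than Luc past 1.5-fold. In 3NQ, none was higher (beside 1.77%) and 6 (5.45%, beside 2.57%) were lower. In the ΔTM-labelled library, 1 (0.909%, beside 1.54%) was higher and 2 (1.82%, beside 1.57%) were lower. Their median log2 ratios were −0.059, −0.095 and −0.11, respectively, beside −0.0049, −0.038 and −0.060 for all genes.

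Of 12 further family members, only IGF2R, GRB7 and GRB14 were expressed. INS, INSRR, IGFBP1 and IGFBPL1 were listed at 0 in all libraries, IGF1, IRS4, IGFBP5 and IGFALS did not exceed 0.0852 FPKM, and IGFBP7 was listed at 1.14e-34 or less. IGF2 was therefore the only ligand of the receptors above 1 FPKM. IGF2R, which takes up IGF2 for degradation and binds mannose 6-phosphate, was at 53.1 FPKM in Luc and 60.6 in WT, against 50.3 in 3NQ and 36.7 in the ΔTM-labelled library. Its log2 ratio to Luc did not reach the threshold, and WT against the ΔTM-labelled library did (0.71), a comparison named after its value was seen. GRB7, an adaptor related to GRB10, was called lower in WT (38.7 FPKM in Luc and 25.3 in WT, a log2 ratio of −0.59), and was at 27.5 in 3NQ and 28.0 in the ΔTM-labelled library. The GRB7 call was lost under median-of-ratios scaling. GRB14, the other relative, was called lower in WT as well (1.54 in Luc and 0.625 in WT, a log2 ratio of −0.64).

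Among 25 expressed receptor partners and attenuators, CBLB alone was called, higher in WT. CBLB, a ubiquitin ligase that can act on activated receptor kinases, was at 3.31 FPKM in Luc and 8.95 in WT, against 3.64 in 3NQ and 3.56 in the ΔTM-labelled library, so that WT was apart from 3 level libraries. The log2 ratio in WT was 1.21 to Luc, 1.10 to 3NQ and 1.12 to the ΔTM-labelled library. GRB2, PTPN1 and FURIN, which links the receptors to RAS, dephosphorylates them and cleaves their precursors, respectively, had log2 ratios between −0.13 and 0.03 in all 3 comparisons. Of the uncalled genes, CAV1 in WT (−0.55) and SOCS2 in 3NQ (0.53) came nearest to the threshold. The median of the list was −0.066 for WT, against 0.017 for 3NQ and −0.028 for the ΔTM-labelled library on the log2 scale.

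Only 3 of 13 genes for release of IGFs from their binding proteins were expressed (ADAM9, CTSD and PLAT), and none was called. PAPPA, a protease of IGFBP4, did not exceed 0.00423 FPKM, and PAPPA2 did not exceed 0.0283. Of the proteins that bind IGF2 mRNA, IGF2BP2 was at 157 to 171 FPKM and IGF2BP3 at 118 to 142, and neither was called, whereas IGF2BP1 did not exceed 0.179. KLK3 of the release list, SESN3 of the mTOR list, PDK4 and G6PC of the FOXO list and GYS2 of the metabolic list were listed at 0 in all libraries.

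All 21 genes of the PI3K and AKT list were expressed. TRIB1, a pseudokinase, was called higher in WT (20.9 FPKM in Luc against 33.2 in WT, with 28.7 in 3NQ and 25.0 in the ΔTM-labelled library, a log2 ratio of 0.65 in WT). PIK3CA, a catalytic subunit of PI3K, was called higher in the ΔTM-labelled library (30.2 FPKM in Luc against 48.0 in that library, with 36.9 in WT and 30.8 in 3NQ, a log2 ratio of 0.65). None of the 21 genes was called lower. AKT1 and AKT2, kinases at the centre of the pathway, had log2 ratios to Luc between −0.19 and 0.26.

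Of 17 expressed mTOR genes, the 2 that were called are inhibitors of the pathway. SESN2, a leucine sensor induced by stress, was at 8.57 FPKM in Luc and 16.6 in WT, against 12.7 in 3NQ and 8.86 in the ΔTM-labelled library, and was called in WT (log2 ratio 0.88). DDIT4, which activates the TSC complex, was at 17.6 FPKM in Luc and 19.8 in WT, against 10.8 in 3NQ and 9.92 in the ΔTM-labelled library. It was called lower in 3NQ (−0.65) and in the ΔTM-labelled library (−0.77), and WT was close to Luc (0.16). None of the 14 genes of the RAS and ERK list was called, with medians of −0.065 for WT, −0.068 for 3NQ and −0.23 for the ΔTM-labelled library on the log2 scale. Of 11 insulin-induced metabolic genes, SCD, the stearoyl-CoA desaturase, was called, lower in 3NQ (204 FPKM in Luc against 124 in 3NQ, with 166 in WT and 194 in the ΔTM-labelled library, a log2 ratio of −0.72 in 3NQ).

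**Figure D5:**
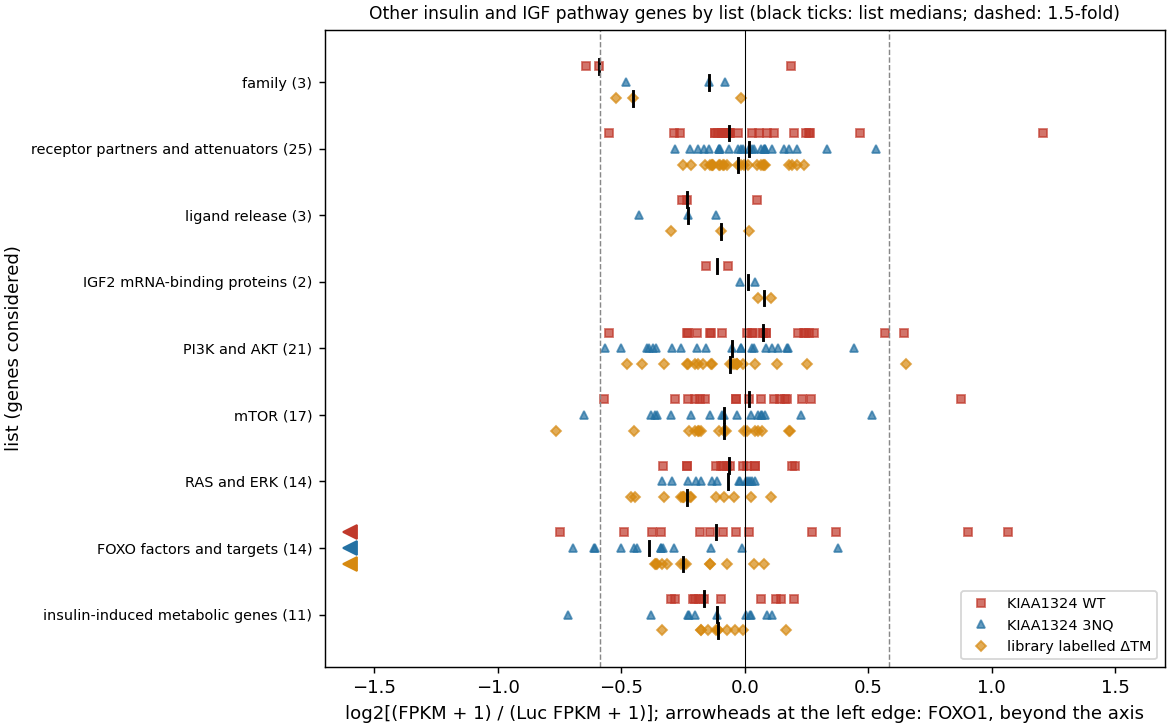
Log2 ratio to Luc of FPKM + 1 for the expressed genes of 9 pathway lists, 1 point per gene and library, with black ticks at list medians and dashed lines at 1.5-fold. Most points lie between the lines, CBLB (1.21) and FBXO32 (1.06) are the highest in WT, and FOXO1 lies beyond the left edge in all 3 libraries.

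FOXO1, the transcription factor that AKT inactivates, had the largest ratios to Luc of the 110 list genes. It was at 359 FPKM in Luc and 1.41 in WT, against 1.34 in 3NQ and 1.28 in the ΔTM-labelled library, which gave log2 ratios of −7.22, −7.26 and −7.30. The Luc library was thus apart from 3 level libraries. Of the 11769 genes, 7 were at least 16-fold higher in Luc than in each other library, 2 in WT, 2 in 3NQ and 6 in the ΔTM-labelled library. MRPS31, the neighbouring gene on chromosome 13, was level (15.7 FPKM in Luc and 16.6 to 17.1 in the other libraries). Farther along, the pseudogene TPTE2P5 was at 181 FPKM in Luc and 202 in WT, listed at 0 in 3NQ and at 0.213 in the ΔTM-labelled library, a pattern unlike that of FOXO1. The file gives no read positions, and the Luc value has no second library to set it against.

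The other FOXO genes did not share this pattern. FOXO3 was at 26.7 FPKM in Luc and 32.4 in WT, against 26.4 in 3NQ and 22.3 in the ΔTM-labelled library, and was not called. FOXO4 was called lower in 3NQ (4.54 in Luc and 2.63 in 3NQ, a log2 ratio of −0.61), a call lost under median-of-ratios scaling. Of the known targets, FBXO32, a muscle atrophy ubiquitin ligase subunit, was called higher in WT (6.90 FPKM in Luc against 15.5 in WT, with 6.18 in 3NQ and 6.17 in the ΔTM-labelled library, a log2 ratio of 1.06). SOD2, the mitochondrial superoxide dismutase, was called higher in WT too (31.4, 59.7, 41.2 and 33.2 FPKM in the same order, a log2 ratio of 0.91).

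CCNG2, a cyclin that restrains the cell cycle, was called lower in WT (−0.75) and in 3NQ (−0.70), from 28.4 FPKM in Luc. In the ΔTM-labelled library CCNG2 was at 22.3 FPKM (−0.33) and was not called. ERBB3, the HER3 receptor, was called lower in 3NQ (48.8 FPKM, −0.61), from 74.8 FPKM in Luc, and lost its call under median-of-ratios scaling. ERBB3 was below Luc in WT (53.0 FPKM, −0.49) and in the ΔTM-labelled library (57.9 FPKM, −0.36) as well, short of the threshold. Without FOXO1, a choice made after seeing the data, 13 expressed genes of the list remained. Their median log2 ratios were −0.088 for WT, −0.34 for 3NQ and −0.24 for the ΔTM-labelled library, with 8, 12 and 11 genes below Luc. All genes considered had medians of −0.0049, −0.038 and −0.060, smaller in size in each comparison. The share of all genes below Luc was not counted. INSR and IRS2, which FOXO factors are known to induce, had log2 ratios between −0.30 and 0.27 in these libraries.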

How the data were processed

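Poly(A) RNA of MKN28 cells was sequenced as 1 library per group. Per the labels and the methods of the study, the authors filtered reads on undetermined and low-quality bases, mapped them to GRCh37 with TopHat (its version is not given in the sources used here) and estimated gene levels with Cufflinks 2.1.1 on Ensembl release 72, with non-coding regions masked and multi-read and fragment bias correction. The deposited values are FPKM, scaled by the authors for gene length and library size. Such values are estimates, so that a gene listed at 0 can be a failed estimate. Libraries were grouped by their titles.

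Log2 ratios were computed with a pseudocount of 1 for the 11769 genes reaching 1 FPKM in any library, and a gene was called past 1.5-fold. There were 166 entries beyond the first of a symbol. For the named genes, the lists and the nearest genes, the entry with the highest mean was used. Counts over all genes considered kept every entry. There were 6 comparisons of pairs of libraries, and no significance test was made. Python 3.11.15, numpy 2.4.6, pandas 2.3.3 and matplotlib 3.10.9 were used. Relative depth was the median step between libraries over genes with 0.001 to 0.06 FPKM in both, within 0.5 on the log2 scale.

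The named genes were the 10 members, KIAA1324, list genes called against Luc (at most 6 per list), list genes at 0, and the 3 genes nearest to each receptor; other list genes were named after their values were seen. The members and lists were chosen with earlier results of these data known. Also run were a threshold of 2-fold, a pseudocount of 0.1 or of 5, no minimum or one of 5 FPKM, upper-quartile or median-of-ratios scaling, 3NQ and the ΔTM-labelled library averaged as control, and, added after seeing the data, a filter without the ΔTM-labelled library. INSR exon 11 was read from GENCODE transcripts on GRCh37.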

Additional observations from a re-analysis of the deposited data

How the results depend on the processing

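The count of 1 member called in 3NQ against Luc held under each alternative run, and that member was IGF2 each time. With a pseudocount of 0.1, 1 member was called in WT against Luc (IGFBP2), 1 in the ΔTM-labelled library against Luc (IGFBP3), 2 in WT against 3NQ (INSR and IGF2) and 1 in WT against the ΔTM-labelled library (INSR). With a 2-fold threshold or a pseudocount of 5, 0 members were called in WT against 3NQ and 0 in 3NQ against the ΔTM-labelled library. Of the 110 pathway genes, a 2-fold threshold left 3 calls for WT, 1 for 3NQ and 1 for the ΔTM-labelled library, where the 1.5-fold threshold gave 9, 6 and 3. A pseudocount of 5 gave 3 calls in 3NQ. With 3NQ and the ΔTM-labelled library averaged as the control, 5 genes were called in WT: CBLB, FBXO32, SOD2, DDIT4 and PINK1. The last 2 were not called in WT against Luc. CCNG2, FOXO1, GRB7, GRB14, SESN2 and TRIB1 lost their calls with that control. A pseudocount of 5 also ended the calls of GRB7, GRB14 and TRIB1 in WT and of DDIT4, ERBB3 and FOXO4 in 3NQ, and median-of-ratios scaling those of GRB7 in WT and of ERBB3 and FOXO4 in 3NQ. The minimum of 5 FPKM left out GRB14 in WT and FOXO4 in 3NQ.

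Of 130 single ratios of members under another pseudocount, scaling or control, 128 kept their side of the threshold. Only 1 main ratio to Luc was called, that of IGF2 in 3NQ, and it kept its sign. The 130 ratios include the uncounted IGFBP6 and leave out the direct comparisons of WT with 3NQ or the ΔTM-labelled library alone, where calls did move. There were 9 changes of sign among values below the threshold, in 6 members. They include IGF2 in WT, which was −0.25 against Luc and 0.37 against the mean of 3NQ and the ΔTM-labelled library, of which 3NQ is low. No paired analysis was possible because each group has 1 library. The depth is unknown, so that no counting interval could be given for INSR, IGFBP2, IGFBP3 and IGFBP6, all below 3 FPKM.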
